A study of Homo sapiens with 6 samples.

Results

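Actin filament assembly and cortex genes encode actin, the proteins that build, cap, cut and bundle its filaments, and the linkers that tie the filaments to the plasma membrane. A list of 55 such genes was followed by name in Jurkat, an established line of leukaemic human T cells. Of the 55, 48 were measured, each by 1 probe set, among 17687 genes in all. The other 7, ARPC3, ACTR2, WASF1, CORO1A, FLNA, CAP1 and TPM3, were not analysed here. On 3 arrays the cells, called 3D below, had been held for 3 h in type I collagen, and on the other 3 they had been in suspension for 3 h. The bovine collagen stood at 1.7 mg/mL and was made up with RPMI holding 10% FBS. Its pH was neutralized by 7.5% NaHCO3 together with Hepes at 25 mM. Cells were mixed in before it set, which took 1 h, and stayed for another 2 h under medium. The suspension cells were grown in RPMI with the same 10% FBS, and for them the labels name neither collagen, NaHCO3 nor Hepes, so the gel and these additions cannot be told apart. All samples come from 1 cell line, the labels give no genotype change or drug, and each group has 3 samples named as biological replicates, with nothing on what kept them apart. Accordingly, p-values measure the spread between these samples, which may be technical.

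Actin filaments grow from monomers that profilins deliver and thymosins hold back. New branches arise where the Arp2/3 complex is switched on by WASP and WAVE proteins, while formins and Ena/VASP proteins extend unbranched filaments. Cofilin cuts old filaments, capping protein and twinfilin act at their ends, and ERM proteins anchor the cortex to the membrane. In T cells this machinery shapes migration through tissue and the contact with antigen-presenting cells.

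Values are the deposited log2 expression of each gene's own probe set, and a difference is the mean of the 3D arrays minus that of the suspension arrays. Medians of the arrays ran from 5.55 to 5.64, and correlations between arrays over all genes between 0.971 and 0.991. The 10 T cell markers averaged 8.83 to 9.20 on the 3D arrays, against 9.15 to 9.28 on the suspension arrays, and CD3E averaged 11.28 ± 0.16 in 3D and 11.36 ± 0.22 in suspension (SD, n = 3 each). Of them 8 had a difference below 0, and CD247, the zeta chain of the T cell receptor complex, had -0.52 (limma, adjusted p 0.380). With the replicate number as a block and a mean of at least 6, CD247 had an adjusted p of 0.0133 and BCL11B, a T cell transcription factor, one of 0.0457. Averages of the lists of B cell, myeloid, fibroblast and epithelial markers lay between 4.20 and 6.14 on the 3D arrays, against 4.18 to 6.26 on the suspension arrays. Single genes of these lists lay higher, with means over the 6 arrays of 8.28 for CD79A, 7.69 for BLK, 7.31 for KRT8 and 7.01 for COL1A2. The other genes of these lists had means under 6. CD79A and BLK thus lay above the T cell markers CD7 (7.25) and BCL11B (6.45). The part of the shifts of the T cell markers in the results below was not tested. Detection flags were not used here, so the number of arrays is the only stated limit on precision.

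No member passed the test over all genes, limma with Benjamini-Hochberg adjustment at a threshold of 0.05. The smallest adjusted p among the 48 was 0.496, and over all 17687 genes the same test called 0, or 0% of them. Differences of the members ran from -0.41 for VASP to 0.37 for DIAPH3. Their median was -0.020, with 23 higher and 25 lower (20 and 28 after quantile normalization once more), beside a median of -0.016 over all genes. The median size of a difference, sign left aside, was 0.13 for the members, against 0.17 for all genes and 0.20 for the 8342 genes with a mean of at least 6. In bulk samples like these, fewer cells expressing a gene and less of its RNA per cell cannot be told apart. At an unadjusted p under 0.05 limma gave 0 members higher and 2 lower, TWF2 and CYFIP1, where it gave 5.9% of all genes higher and 3.97% lower (9.87% in either direction). The count of 2 lower was 0 without 3D replicate 2 or 3D replicate 3, and 1 without suspension replicate 1 (ACTN4) or 3 (CYFIP1). The groups did not overlap for 5 members, 1 higher and 4 lower, where this held for 8.28% and 8.03% of all genes (16.3% in either direction). The difference had the same sign in all 3 replicate numbers for 16 members, 6 higher and 10 lower, where this held for 20.3% and 19.8% of all genes (40.1% in either direction).

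The 95% interval of the difference, from limma's moderated error, lay within 1 log2 unit of 0, a 2-fold difference, for 47 of the 48. CFL1 was the exception, at -1.13 to 0.39. Intervals of 29 members lay within 0.6 and those of 15 within 0.5. Only the intervals of TWF2 and CYFIP1 left out 0.

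**Figure D1:**
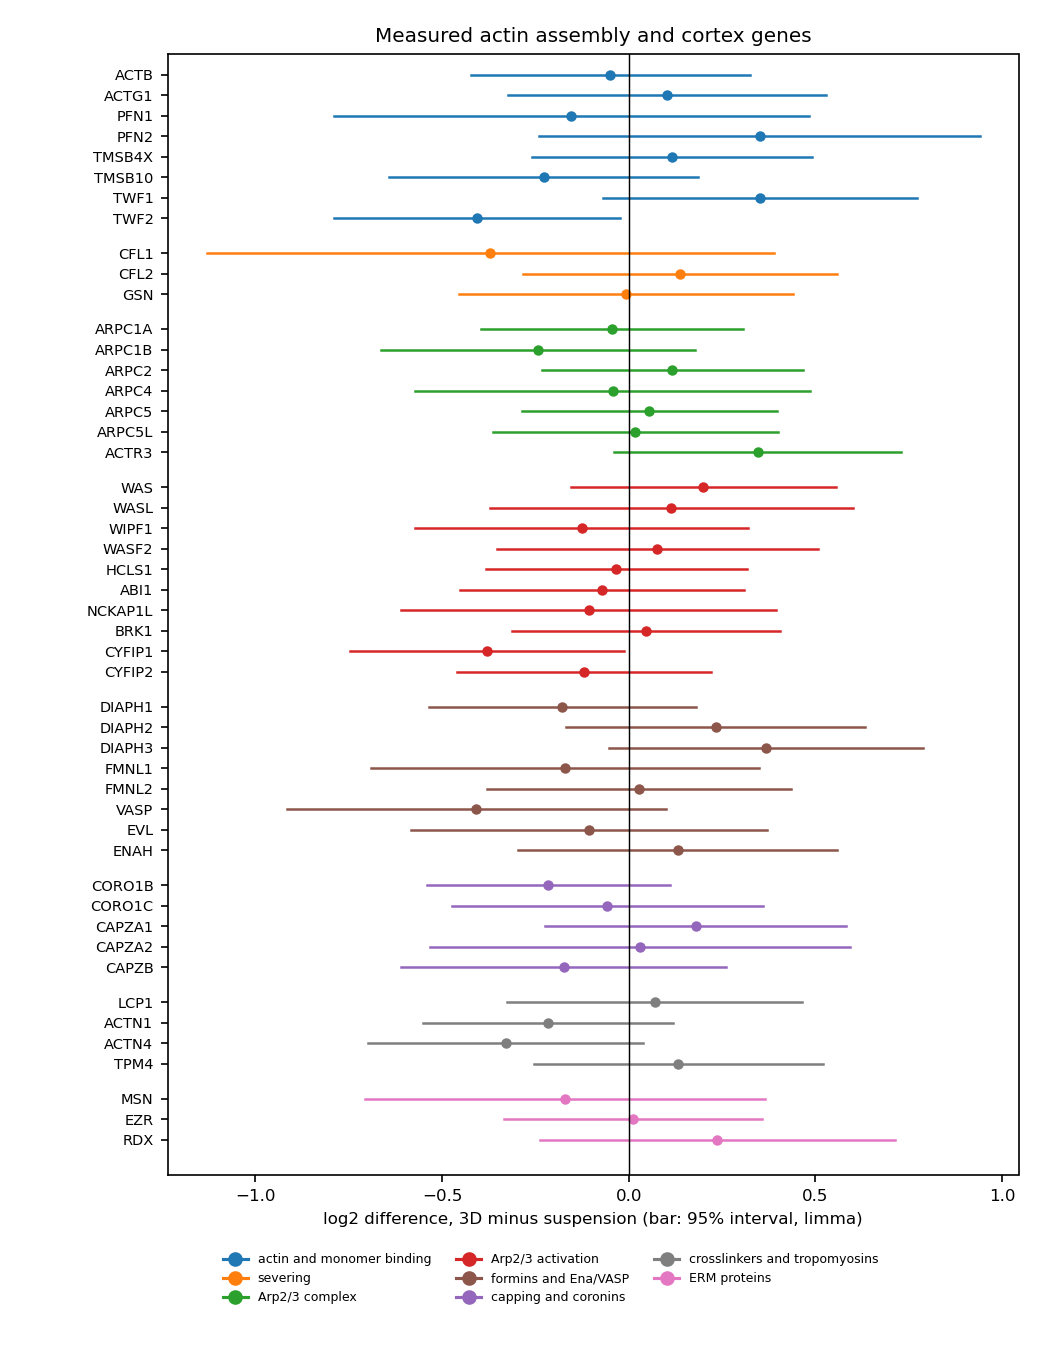
Log2 difference, 3D minus suspension, for the 48 measured genes, grouped by role. Points are differences and bars are 95% intervals from limma with 3 arrays a group. Points run from -0.41 (VASP) to 0.37 (DIAPH3), and 46 of the 48 bars cross 0.

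Among the genes for actin and its monomer supply, TWF2 had the lowest difference and PFN2 and TWF1 the highest. TWF2, twinfilin 2, which binds actin monomers and capping protein, measured 7.48, 7.22 and 7.36 in 3D replicates 1, 2 and 3, against 8.02, 7.59 and 7.68 in suspension replicates 1, 2 and 3. All 3 arrays of 3D lay below all 3 of suspension. The difference was -0.41 ± 0.17 (SE), or 0.754-fold, with an unadjusted p of 0.0391 and an adjusted p of 0.496 by limma. Its paralog TWF1, twinfilin 1, gave 8.55, 8.70 and 8.99 in 3D replicates 1, 2 and 3, against 8.09, 8.51 and 8.59 in suspension replicates 1, 2 and 3. In each replicate number 3D was the higher value, though the groups overlapped, and the difference of 0.35 ± 0.19 (SE) did not pass (limma, adjusted p 0.560). The twinfilins thus had differences of opposite sign in all 3 replicate numbers; the contrast between them was not tested, and TWF1 was picked for this after its values were seen.

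Actin itself differed by less than its spread between arrays. ACTB, beta-actin, measured 9.56, 9.86 and 9.46 in 3D replicates 1, 2 and 3, against 9.63, 9.57 and 9.82 in suspension replicates 1, 2 and 3, a difference of -0.049 ± 0.17 (SE) with an interval of -0.42 to 0.32. ACTG1, gamma-actin, measured 12.47, 12.66 and 12.34 in 3D replicates 1, 2 and 3, against 12.41, 12.06 and 12.70 in suspension replicates 1, 2 and 3, a difference of 0.10 ± 0.19 with an interval of -0.32 to 0.53. In replicate 2 the differences of ACTB and ACTG1 were 0.28 and 0.60, and in replicate 3 they were -0.36 and -0.36. Without suspension replicate 2 the difference of ACTG1 was -0.062. These 2 genes, like profilin, cofilin and thymosin genes, have many near-identical copies in the genome, and without probe sequences their signals cannot be assigned to a single copy. Both were picked after their values were seen.

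Among the other monomer-binding genes the differences were small or uneven between replicates. PFN1, profilin 1, which hands monomers to growing filament ends, had -0.15 ± 0.29 (SE), and PFN2 had 0.35 ± 0.27. PFN2 ran from 0.11 without suspension replicate 1 to 0.57 without suspension replicate 2. The thymosin genes TMSB4X and TMSB10, whose products hold monomers in reserve, had 0.12 ± 0.17 and -0.23 ± 0.19. Of the 8 measured genes of this role 4 were higher and 4 lower, with a median of 0.027.

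**Figure D2:**
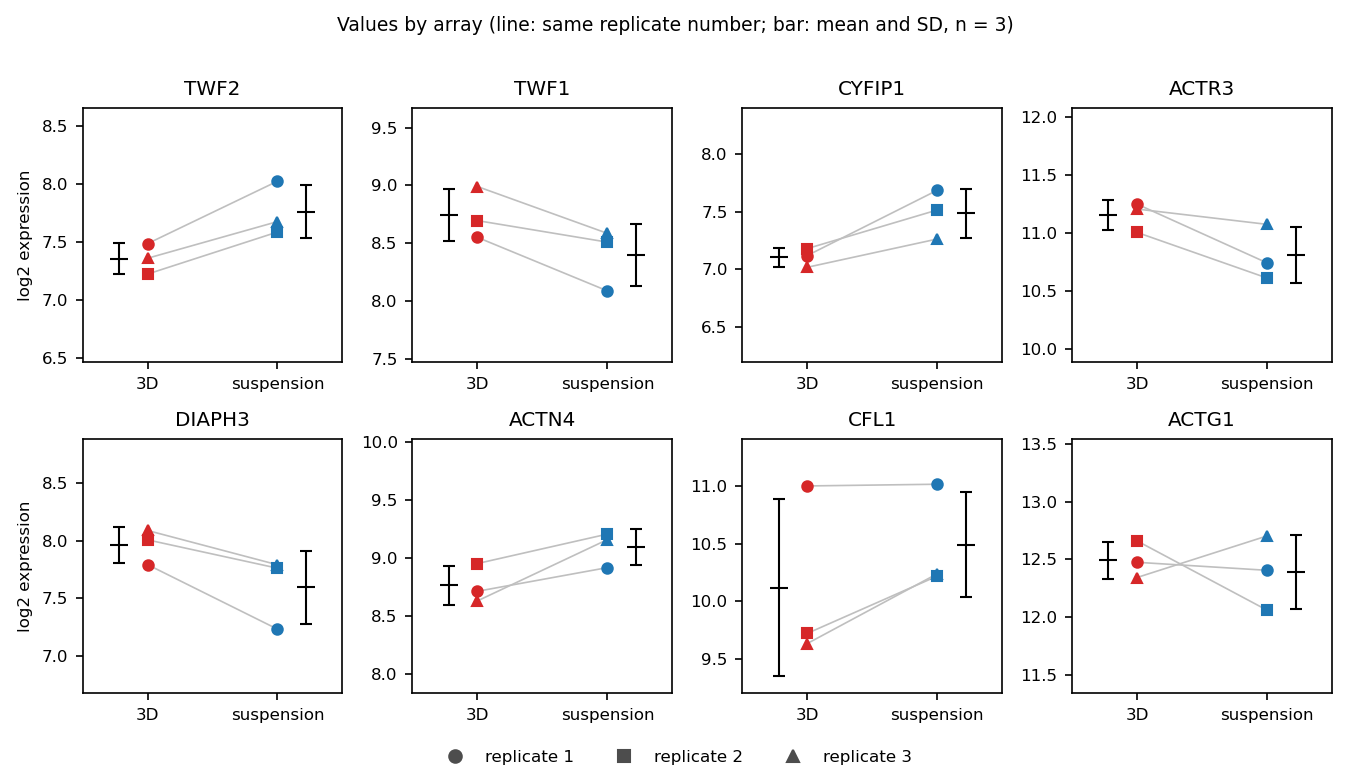
Log2 expression on each array for 8 members, with 3D on the left and suspension on the right of each panel. Marker shapes give the replicate number, grey lines join arrays of the same number, and bars give mean and SD (n = 3). TWF2, CYFIP1 and DIAPH3 are the panels without overlap, and CFL1 shows replicate 1 apart from the others in both groups.

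CFL1, cofilin 1, which severs filaments, had the largest standard error of the members. It measured 11.00, 9.72 and 9.64 in 3D replicates 1, 2 and 3, against 11.01, 10.22 and 10.24 in suspension replicates 1, 2 and 3. Replicate 1 was the high one in both groups, and the differences were -0.015, -0.50 and -0.60 in replicates 1, 2 and 3. The difference of -0.37 ± 0.34 (SE) did not pass (limma, adjusted p 0.729), and it reached -0.81 without 3D replicate 1 and -0.11 without suspension replicate 1. CFL2, cofilin 2, had 0.14 ± 0.19, and GSN, gelsolin, a calcium-dependent severing protein, had -0.0067 ± 0.20.

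Subunits of the Arp2/3 complex, which nucleates branches, had differences between -0.045 and 0.12 for 5 of the 7 measured. ACTR3, the Arp3 subunit, stood apart at 11.25, 11.01 and 11.21 in 3D replicates 1, 2 and 3, against 10.74, 10.61 and 11.08 in suspension replicates 1, 2 and 3. All of its 3 replicate numbers were higher in 3D, by 0.51, 0.39 and 0.13, while the groups overlapped through suspension replicate 3. The difference was 0.34 ± 0.17 (SE), or 1.27-fold, and did not pass (limma, adjusted p 0.538). ARPC1B, the form of the ARPC1 subunit that predominates in blood cells, had -0.24 ± 0.19, and ARPC1A, its paralog, had -0.045 ± 0.16. The other subunits were ARPC2 at 0.12, ARPC4 at -0.043, ARPC5 at 0.055 and ARPC5L at 0.017. The median of the 7 was 0.017, with 4 higher and 3 lower.

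Of the 10 measured genes that switch the Arp2/3 complex on, 4 were higher and 6 lower, with a median of -0.053. CYFIP1, a subunit of the WAVE regulatory complex that binds active Rac, measured 7.12, 7.18 and 7.02 in 3D replicates 1, 2 and 3, against 7.68, 7.51 and 7.26 in suspension replicates 1, 2 and 3. Every 3D array lay below every suspension array. The difference was -0.38 ± 0.17 (SE), or 0.768-fold, with an unadjusted p of 0.0432 and an adjusted p of 0.503 by limma. Its paralog CYFIP2 had -0.12 ± 0.15, and the remaining WAVE complex genes were close to 0, with WASF2 at 0.077, ABI1 at -0.073, NCKAP1L at -0.11 and BRK1 at 0.046 (-0.00083 after quantile normalization once more). WAS, the blood-cell nucleation factor lost in Wiskott-Aldrich syndrome, had 0.20 ± 0.16, and WASL, its relative N-WASP, had 0.11 ± 0.22. WIPF1, which stabilises WASP, and HCLS1, a cortactin relative of blood cells, had -0.13 and -0.034.

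Formins and Ena/VASP genes, whose products extend unbranched filaments, split 4 higher and 4 lower. DIAPH3 measured 7.79, 8.01 and 8.09 in 3D replicates 1, 2 and 3, against 7.23, 7.76 and 7.79 in suspension replicates 1, 2 and 3. It was the 1 member higher in 3D without overlap, with 3D replicate 1 and suspension replicate 3 both at 7.79 when rounded. The difference was 0.37 ± 0.19 (SE), or 1.29-fold (limma, adjusted p 0.547). DIAPH2 had 0.23 ± 0.18, while DIAPH1 had -0.18 ± 0.16 with nearly equal differences of -0.17, -0.18 and -0.18 in replicates 1, 2 and 3. VASP, which protects growing ends from capping, had the lowest difference of all members, -0.41 ± 0.23 (limma, adjusted p 0.569). Its differences were -0.88, 0.26 and -0.60 in replicates 1, 2 and 3, so replicate 2 went the other way. The difference of VASP ran from -0.59 without suspension replicate 2 to -0.18 without suspension replicate 1. EVL and ENAH, of the same family, had -0.11 and 0.13, and the formins FMNL1 and FMNL2 had -0.17 and 0.028. FMNL2 and CORO1B were the 2 members with a mean under 6, so whether they were expressed at all is uncertain. WAS and GSN, each with a mean of 6.01, lay close to that limit, so the same caution holds for them.

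Capping protein blocks filament ends, and coronins help take branches apart. CAPZA1, CAPZA2 and CAPZB, its subunit genes, had 0.18, 0.030 and -0.17, where that of CAPZA2 turned to -0.0050 after quantile normalization once more. Without suspension replicate 1 that of CAPZA1 was 0.012. CORO1B measured 4.30, 4.22 and 4.29 in 3D replicates 1, 2 and 3, against 4.45, 4.50 and 4.51 in suspension replicates 1, 2 and 3. Its groups did not overlap and lay close together, with a difference of -0.22 ± 0.15 (SE; limma, adjusted p 0.630), and CORO1C had -0.057 ± 0.19.

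The alpha-actinins, which crosslink filaments, were lower in 3D in every replicate number without passing the test. ACTN4 measured 8.71, 8.95 and 8.63 in 3D replicates 1, 2 and 3, against 8.92, 9.21 and 9.16 in suspension replicates 1, 2 and 3. The difference was -0.33 ± 0.17 (SE), or 0.796-fold (limma, adjusted p 0.538), with an overlap between 3D replicate 2 and suspension replicate 1. ACTN1, picked after its values were seen, measured 8.46, 8.57 and 8.50 in 3D replicates 1, 2 and 3, against 8.67, 8.85 and 8.67 in suspension replicates 1, 2 and 3. Its groups did not overlap, at -0.22 ± 0.15 (limma, adjusted p 0.638). LCP1, the leukocyte bundling protein L-plastin, had 0.070 ± 0.18, and TPM4, a tropomyosin that coats filaments, had 0.13 ± 0.18.

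Of the ERM genes, MSN, EZR and RDX, the order of the differences was -0.17, 0.011 and 0.24, with 2 above 0, of which EZR turned to -0.056 after quantile normalization once more. RDX, radixin, had the smallest p of the 3. It measured 7.11, 6.92 and 7.38 in 3D replicates 1, 2 and 3, against 6.45, 7.10 and 7.14 in suspension replicates 1, 2 and 3. The value of suspension replicate 1 was the low one, and without that array the difference was 0.015. MSN, moesin, measured 10.72, 10.06 and 9.98 in 3D replicates 1, 2 and 3, against 10.86, 10.15 and 10.28 in suspension replicates 1, 2 and 3. Its differences of -0.14, -0.082 and -0.30 in replicates 1, 2 and 3 were all smaller than the step of 0.67 between replicate 1 and the mean of the others. MSN was picked for this after its values were seen.

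Steps of this kind were compared for all members. Each gene's sum of squares over the 6 arrays was divided into the parts between conditions, between replicate numbers and the rest. Replicate number takes 40% and condition 20% of the degrees of freedom, which are the mean shares expected where neither has an effect. Medians and counts over 50% are other measures than a mean, so those below are set beside all genes and not beside these means. Replicate number held over 50% of the sum of squares for 25 of the 48 members, where this was so for 42.1% of all genes. Condition held over 50% for 6 of the 48, against 18.2% of all genes. The medians for the members were 54.4% for replicate number and 9.99% for condition, and for all genes 42.9% and 18.1%. Arrays of replicate 1 were higher than the mean of the others by 1.05 for CFL1, 0.79 for PFN1, 0.67 for MSN, 0.59 for NCKAP1L and 0.57 for ARPC4. For CAPZA2 and PFN2 the same contrast gave -0.70 and -0.69. What separated the replicate numbers is not given in the sources used here. Fits with the number as a block follow.

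**Figure D3:**
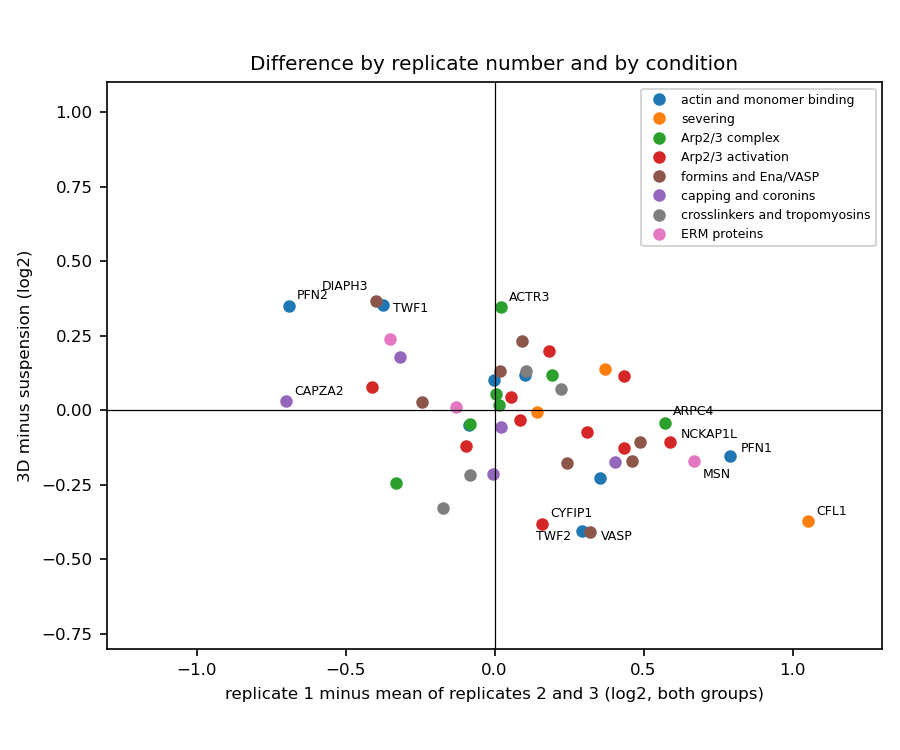
Each point is 1 of the 48 members. The horizontal axis gives the arrays of replicate 1 minus the mean of replicates 2 and 3 over both groups, and the vertical axis gives 3D minus suspension, both in log2. The points spread from -0.70 to 1.05 sideways and from -0.41 to 0.37 upwards.

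With the replicate number as a block, limma over all genes again called 0 members, where it called 0.0905% of all genes. In the fit with this block limited to the 8342 genes with a mean of at least 6, it called 1 of 46 members, TWF2, where it called 14.4% of these genes, 10.6% higher and 3.78% lower. TWF2 thus fell in 3D in that fit, by 0.41 ± 0.14 (SE; adjusted p 0.0442). Without replicate number 1, 2 or 3 its difference was -0.34, -0.43 or -0.45 and the call was lost (adjusted p 0.230, 0.0553 and 0.156). With the trend on gene span and neighbours removed the difference was -0.33, with an adjusted p of 0.107. CYFIP1, DIAPH3, CFL1 and TWF1 followed, with adjusted p of 0.0612, 0.0703, 0.0779 and 0.0796. The members called changed with the replicate left out: CFL1 alone, lower, without number 1, then VASP lower and PFN2, DIAPH2 and RDX higher without number 2, and none without number 3. Of the 8342 genes, 331 were called higher and 127 lower without number 1. Without number 2 these counts were 923 and 534, and without number 3 they were 369 and 37. All genes were given 1 shared variance without number 2 or 3.

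Gene span and crowding went with the difference over the whole array, and less evenly among the members. Across all genes, which are not independent replicates, the Spearman correlation between difference and span was 0.249, and across the 48 members it was 0.043. For the number of neighbouring genes within 500 kb it was -0.277 across all genes and -0.412 across the members. The 15 members with a span over 100 kb had a median difference of -0.11, with 5 higher and 10 lower, while all 3076 such genes had a median of 0.058. DIAPH2, DIAPH3 and FMNL2, with spans of 920 kb, 498 kb and 315 kb, were among the 5. The points share arrays, so these correlations only describe this data set.

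**Figure D4:**
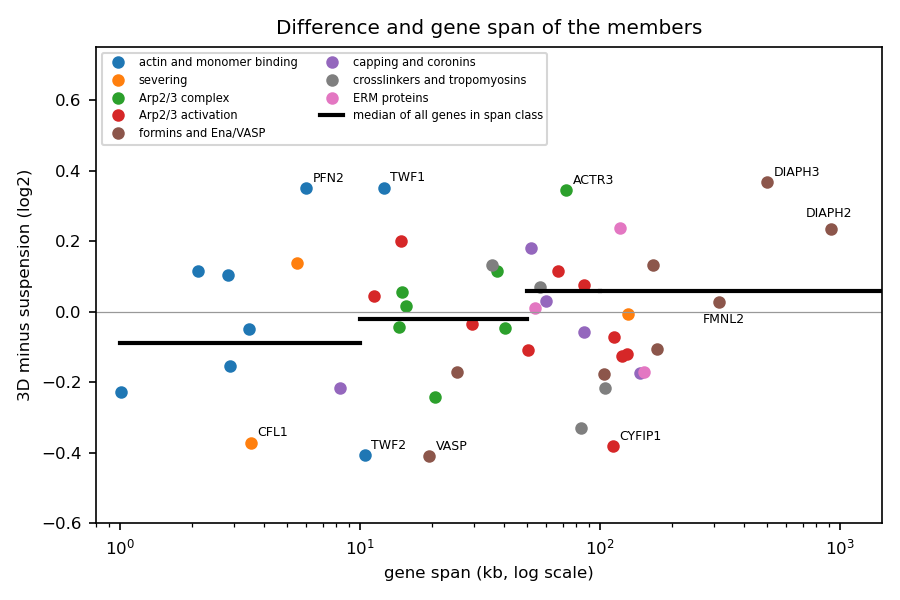
Log2 difference, 3D minus suspension, against gene span in kb on a log axis for the 48 members. Black bars give the median of all genes in 4 span classes, which ran from -0.089 for spans up to 10 kb to 0.058 for spans over 100 kb. The bars of the 2 upper classes, at 0.060 and 0.058, touch. Members of all 8 roles lie on both sides of 0.

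Many actin genes are known targets of serum response factor (SRF), whose coactivators MRTFA and MRTFB are held in the cytoplasm by actin monomers. SRF binds the CArG box, a motif of 10 bases, and its presence in the 250 bases before each gene's start was looked up, since it is the sequence link between actin and this factor. The motif reads the same on both strands, so 1 search covered both. It was found for 4 of the 50 members with an entry in the RefSeq promoter table (build GRCh38.p14), or 8%, where 1.44% of all 27305 genes in the table held it. ACTB, PFN2, ARPC1B, WASF2 and NCKAP1L had no entry there, so their promoters were not searched and may hold the motif or lack it. The sites of the 3 measured members, of FLNA, which was not analysed here, and of SRF itself are shown 5′ to 3′ on the gene's strand, with the motif in capitals.
ACTG1, chr17:81512874-81512903, minus strand: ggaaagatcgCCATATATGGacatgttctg
ACTN1, chr14:68977718-68977747, minus strand: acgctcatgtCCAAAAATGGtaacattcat
TPM4, chr19:16067355-16067384, plus strand: aatcctaggtCCAAATAAGGcgagggctgc
FLNA, chrX:154374709-154374738, minus strand: ggcaattttaCCAATTAAGGctttctcgcc
SRF, chr6:43171229-43171258, plus strand: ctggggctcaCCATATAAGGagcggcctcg
SRF, second site, chr6:43171249-43171268, plus strand: agcggcctcgCCATAAAAGG
The motif began 94 bases before the start of ACTG1 and of FLNA, 171 before that of ACTN1, 173 before that of TPM4 and 30 and 10 before that of SRF. The 3 measured members found with the motif did not share a direction, at 0.10 for ACTG1, -0.22 for ACTN1 and 0.13 for TPM4. SRF, which is not a member, had -0.39. Sites of other genes are not shown. A match describes these letters and does not show binding.

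SRF itself measured 6.79, 6.94 and 7.01 in 3D replicates 1, 2 and 3, against 7.14, 7.34 and 7.42 in suspension replicates 1, 2 and 3. All 3D arrays lay below all suspension arrays, with a difference of -0.39 ± 0.16 (SE), or 0.763-fold, an unadjusted p of 0.0331 and an adjusted p of 0.485 by limma. MRTFA measured 6.78, 6.42 and 6.33 in 3D replicates 1, 2 and 3, against 7.08, 6.87 and 6.69 in suspension replicates 1, 2 and 3. It was lower in 3D in each replicate number, at -0.37 ± 0.18 (limma, adjusted p 0.528). Of the 15 genes of the MRTF and SRF list, 3 were higher and 12 lower, with a median of -0.18. The sign was below 0 in all 3 replicate numbers for 8 of the 15, where this held for 19.8% of all genes. The list was chosen with earlier results of these data known, so these counts describe it and do not test it. Of the 15, 9 had a mean of at least 6, and whether the rest were expressed is uncertain. At an unadjusted p under 0.05, 0 were higher and 1 lower, SRF, where 5.9% of all genes were higher and 3.97% lower. ZYX, zyxin, a known target, had -0.24 ± 0.16. In the fit with the replicate block and a mean of at least 6, SRF and MRTFA had adjusted p of 0.0515 and 0.0648. After quantile normalization once more that fit called both lower (adjusted p 0.0364 and 0.0487), and with the trend on span and neighbours removed it called MRTFA lower (adjusted p 0.0264), where SRF had an adjusted p of 0.125.

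Upstream of the filaments, switches and kinases decide where actin is assembled. RAC1 and CDC42, whose products act upstream of the WAVE complex and of WASP, had differences of -0.20 ± 0.18 (SE) and -0.011 ± 0.17. ROCK2, a kinase that acts on myosin and on cofilin's regulators, measured 6.88, 7.15 and 7.37 in 3D replicates 1, 2 and 3, against 5.92, 6.50 and 6.64 in suspension replicates 1, 2 and 3. Its groups did not overlap, and the difference was 0.78 ± 0.22, or 1.72-fold (limma, adjusted p 0.380). LIMK1, the kinase that switches cofilin off, measured 6.81, 5.71 and 5.83 in 3D replicates 1, 2 and 3, against 7.26, 6.49 and 6.32 in suspension replicates 1, 2 and 3. It was lower in 3D in each replicate number, at -0.58 ± 0.31 (limma, adjusted p 0.557). Without 3D replicate 1 the difference of LIMK1 was -0.92, and without suspension replicate 1 it was -0.29.

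DOCK10, an exchange factor for Cdc42 and Rac, measured 7.99, 8.30 and 8.34 in 3D replicates 1, 2 and 3, against 6.96, 7.54 and 7.57 in suspension replicates 1, 2 and 3. Each 3D array lay above each suspension array, at 0.86 ± 0.20 (SE), or 1.81-fold (limma, adjusted p 0.347), the largest difference of the 83 measured genes in the 5 pathway lists. DOCK11 and DOCK8 had 0.40 ± 0.19 and 0.33 ± 0.19, where DOCK8 had a mean of 3.45, so whether it was expressed is uncertain. Among 15 myosin genes and their regulators 2 were higher and 0 lower at an unadjusted p under 0.05, where 5.9% of all genes were higher and 3.97% lower. These were MYO9A, an unconventional myosin, at 0.63 ± 0.19, and PPP1R12A, the targeting subunit of myosin phosphatase, at 0.55 ± 0.22; MYO5A had 0.41 ± 0.20. Among 21 other actin-binding and cortex genes 1 was higher and 0 lower at that level, a share near that of all genes. It was the formin gene DAAM1, at 0.56 ± 0.23. ADD3, an adducin of the spectrin skeleton, and SLK, a kinase that activates ERM proteins, had 0.47 ± 0.22 and 0.46 ± 0.23. Of the 83 genes 0 passed over all genes without the block.

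With the replicate block and a mean of at least 6, limma called 10 of 64 such genes, where it called 14.4% of all genes in that fit. ROCK2, DOCK10, MYO9A, PPP1R12A, ADD3, DAAM1 and SLK rose, and 3 genes fell, among them LIMK1 and ELMO1, a partner of DOCK proteins. After quantile normalization once more the same fit called 6 higher and 7 lower. The adjusted p in that fit was 0.000517 for DOCK10, 0.00106 for ROCK2, 0.00768 for LIMK1 and 0.00880 for DAAM1. ROCK2, DOCK10 and DAAM1, higher, and LIMK1, lower, were also called after quantile normalization once more and with the trend on span and neighbours removed. They were called without each replicate number in turn too, but those fits had 1 residual degree of freedom each. Without number 2 or 3 all genes were given 1 shared variance, so those calls rest on the size of the difference alone. Genes above 100 kb include ROCK2 (166 kb), DOCK10 (277 kb), MYO9A (296 kb), PPP1R12A (162 kb) and DAAM1 (183 kb), and the correlation of difference with span across the 83 genes was 0.406. The part of gene span in these differences was tested only by removing the trend. The calls rest on both the block and the limit on the mean, since limma called 0 of the 83 genes without the block and 0 with the block over all genes.

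**Figure D5:**
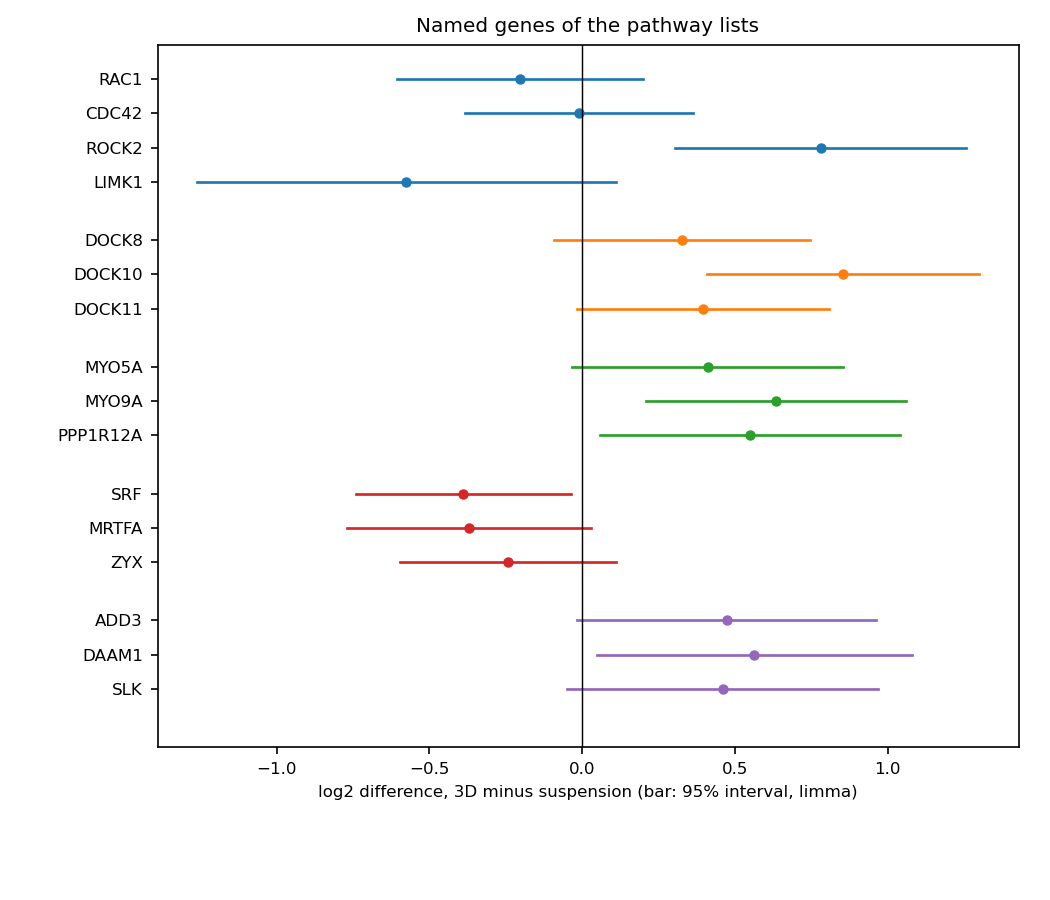
Log2 difference, 3D minus suspension, for 16 genes of the 5 pathway lists, each list in its own colour, with 95% intervals from limma without the block (3 arrays a group). Intervals of ROCK2, DOCK10, MYO9A, PPP1R12A and DAAM1 lie above 0 and that of SRF below, before adjustment over all genes.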

How the data were processed

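Expression was measured with arrays in 3 samples of Jurkat cells in collagen and 3 in suspension, 1 array a sample. Each deposited number is a log2 level of 1 probe set, computed by the authors using RMA and the Transcriptome Analysis Console, per the submitters' processing notes; versions and the genome build are not given in the sources used here. Of 21448 probe sets 17709 had 1 gene, 0 had several and 3739 had none in the platform annotation, and for the 20 genes with over 1 the brightest was kept. Limma 3.58.1 in R 4.3.3 fitted 3D minus suspension over all 17687 genes (lmFit and eBayes, two-sided, Benjamini-Hochberg, threshold 0.05), with no block. A test of single genes by exact permutation of 3 arrays against 3 cannot go below 0.10 and was not used.

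Replicate numbers in the labels met a rule for pairing, that every same-numbered pair correlates above 0.1. The deviations from the group means correlated at 0.521, 0.120 and 0.337 over all genes. Crossed pairs reached 0.230 and 0.149 between numbers 2 and 3, so these arrays correlated across numbers about as much as within them. Deviations sum to 0 over the 3 arrays of a group, so the number 1 pair bears on the values of numbers 2 and 3. Meeting the rule therefore does not show that numbers 2 and 3 are paired. The replicate block was fitted as an alternative, over all genes and over the 8342 with a mean of at least 6. On data simulated for the fit without the block, a 0.5 log2 change was found for 4.6% of changed genes and a change of 1 for 80.8% (17687 genes). With the block and the filter the shares were 59.4% and 100% (8342 genes). Each simulation drew independent noise from the variances of its own fit, and the second took the block as given. The shares therefore do not test the pairing, and they do not show that the fit with the block is right.

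Members and gene lists were chosen with earlier results of these data known. Values of each array are given for members with an unadjusted p under 0.05, for those called with the block and the filter, and for the smallest p in each of the 8 roles, and for 5 members picked after their values were seen. From each of 5 pathway lists, up to 3 genes of smallest p are named, plus RAC1, CDC42, SRF and MRTFA; some genes and list counts under that rule are not reported here. Spans, neighbour counts and promoter sequences come from RefSeq on GRCh38.p14.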

Additional observations from a re-analysis of the deposited data

How the results depend on the processing

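Without the block, limma called 0 genes and 0 members at an adjusted p under 0.05 with the filter on the mean, after quantile normalization once more, without moderation of variances, with the mean of all probe sets, with the trend on span and neighbours removed and without each array. The replicate block gave 16 genes and 0 members, and the block with the filter on the mean gave 1199 genes, 884 higher and 315 lower, and 1 member. With quantile normalization once more this last fit gave 725 higher and 491 lower and 3 members, CFL1, CYFIP1 and TWF2, and with the trend removed 0 members; both were chosen after seeing the data. That fit gave 458, 1457 and 406 genes and 1, 4 and 0 members without replicate numbers 1, 2 and 3, where without 2 or 3 limma gave all genes 1 shared variance. At an unadjusted p under 0.05 the members higher were 3 with the block, 4 with the block and the filter and 0 to 1 without each array, against 0. The members lower were 4 with the block, 5 with the block and the filter, 1 with the trend removed and 0 to 2 without each array, against 2. After quantile normalization once more those lower were ACTN4, CYFIP1 and TWF2, and without moderation of variances CORO1B, ACTN1 and CYFIP1. In these fits, in turn, 801 and 768 of all genes were lower. Over all 17687 genes the block gave 1773 higher and 1302 lower, and with the filter it gave 1672 and 1000 of 8342. Without each array all genes gave 683 to 1169 higher and 392 to 838 lower, and with the trend removed 932 and 640. The median of the members ran from -0.10 to 0.070 without each array. The sign turned with the trend removed for ARPC4 (0.0021), FMNL2 (-0.10), EZR (-0.029) and CAPZA2 (-0.010), and after quantile normalization for EZR (-0.056), CAPZA2 (-0.0050) and BRK1 (-0.00083). Without each array 21 members kept their sign, and the log2 difference of the other 27 and of CDC42 ran over ACTB -0.16 to 0.033, ACTG1 -0.062 to 0.26, PFN1 -0.46 to 0.12, ARPC1A -0.098 to 0.045, ARPC4 -0.26 to 0.20, ARPC5 -0.0099 to 0.091, ARPC5L -0.11 to 0.15, WASL -0.12 to 0.34, WIPF1 -0.27 to 0.084, WASF2 -0.071 to 0.21, CORO1C -0.22 to 0.079, FMNL1 -0.44 to 0.073, FMNL2 -0.14 to 0.18, MSN -0.40 to 0.043, EZR -0.035 to 0.084, TMSB4X -0.012 to 0.21, LCP1 -0.093 to 0.18, CAPZA2 -0.23 to 0.24, CAPZB -0.32 to 0.0062, GSN -0.15 to 0.15, EVL -0.27 to 0.093, ENAH -0.012 to 0.32, TPM4 -0.025 to 0.23, HCLS1 -0.12 to 0.040, ABI1 -0.18 to 0.030, NCKAP1L -0.30 to 0.094, BRK1 -0.032 to 0.14 and CDC42 -0.14 to 0.069. The cause of these turns was not tested. The number of arrays limits all values, and signal over background was not used.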
